A study of Homo sapiens with 6 samples.

Results

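The genes described here encode the enzymes that add and remove the phosphate on the alpha subunit of the translation factor eIF2. They were taken as the rows whose symbol equals a name on a list of 10: the eIF2 kinases EIF2AK1, EIF2AK2, EIF2AK3 and EIF2AK4, the kinase regulator IMPACT, the phosphatase regulatory subunits PPP1R15A and PPP1R15B, and the catalytic subunits PPP1CA, PPP1CB and PPP1CC. All 10 were found among the 56832 rows of the count tables, and all 10 passed the filter on low counts that left 17415 genes for testing. The cells were HEK293T, a human embryonic kidney line, in which the glyoxalase gene GLO1 had been knocked out, so that every library, controls included, carried the knockout. Glyoxalase 1 begins the detoxification of methylglyoxal (MGO), a dicarbonyl by-product of glycolysis that reacts with proteins and nucleic acids. Poly(A) RNA was sequenced from 3 libraries of untreated cells, numbered 1, 2 and 4, and from 3 libraries of cells that had 0.2 mM MGO in the medium overnight, numbered 1, 3 and 4. The comparison asked what added MGO does to mRNA levels in cells that lack this enzyme. The labels do not say whether the knockout line was a single clone or whether the libraries were separate cultures. The p-values set the difference between groups only against the spread of these libraries within a group, and that spread may be technical.

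Phosphorylation of eIF2 alpha slows most protein synthesis and favours the translation of a few mRNAs, such as that of the transcription factor ATF4, a programme called the integrated stress response. Each kinase senses its own stress: EIF2AK1 (HRI) responds to lack of heme and to mitochondrial stress, EIF2AK2 (PKR) to double-stranded RNA, EIF2AK3 (PERK) to unfolded proteins in the endoplasmic reticulum, and EIF2AK4 (GCN2) to uncharged tRNA and stalled ribosomes. IMPACT binds GCN1 and holds EIF2AK4 back. The phosphate is removed by protein phosphatase 1 (PP1), whose catalytic subunit is brought to eIF2 by PPP1R15A (GADD34), the stress-induced subunit, or PPP1R15B (CReP), the constitutive subunit.

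Promoter sequences are shown for these regulatory subunits, whose responses differed most within a pair of related members. They are the 250 bases before the RefSeq start on GRCh38.p14, 5′ to 3′, with capitals for the motif matches described next. PPP1R15A lies on the plus strand at chr19:48872171-48872420 and PPP1R15B on the minus strand at chr1:204411818-204412067.
PPP1R15A: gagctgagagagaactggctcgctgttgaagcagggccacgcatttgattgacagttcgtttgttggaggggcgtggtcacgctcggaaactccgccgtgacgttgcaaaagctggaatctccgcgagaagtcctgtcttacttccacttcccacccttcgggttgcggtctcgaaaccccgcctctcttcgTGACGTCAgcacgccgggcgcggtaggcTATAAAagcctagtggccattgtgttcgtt
PPP1R15B: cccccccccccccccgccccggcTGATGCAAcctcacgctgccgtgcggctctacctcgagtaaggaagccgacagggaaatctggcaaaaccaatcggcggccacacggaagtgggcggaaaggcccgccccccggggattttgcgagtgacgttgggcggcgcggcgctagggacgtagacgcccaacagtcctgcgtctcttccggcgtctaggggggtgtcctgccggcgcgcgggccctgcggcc
A set of 5 motifs was searched on both strands of 300-base windows, which add 50 bases after the start, and 8 of the 10 genes had a window, EIF2AK1 and PPP1CA being without. The PPP1R15A window held the cAMP response element TGACGTCA, a site for the ATF and CREB family, at bases -58 to -51 and the TATA box letters TATAAA at -30 to -25, with the start base counted as 0. Of all 35116 windows, 1.85% held the first, 11.5% the second and 0.171% both, and PPP1R15A was the only member with either match among those with a window. The C/EBP-ATF element TGATGNAA matched in PPP1R15B at -227 to -220 and in 3.62% of all windows. The core of the interferon-stimulated response element, a pair of GAAA runs with 2 free bases between them, matched in EIF2AK2 as GAAAACGAAA at -6 to 3, and in 3.57% of all windows. The endoplasmic reticulum stress response element, CCAAT and CCACG with 9 free bases between them, matched in none of the member windows and in 0.0769% of all windows. A match is a run of letters and not a measured binding site.

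Library totals ranged from 41002134 to 45910040 counts in untreated and from 19195920 to 21544749 in MGO, so that depth was split exactly as treatment was and depth and treatment cannot be told apart by design. With the untreated counts thinned to the mean MGO total, the calls on the 10 genes were the same, and the log2 fold change of PPP1R15A was 5.56, that of EIF2AK3 1.64, that of EIF2AK4 -1.41 and that of PPP1CA -0.13. GLO1 itself had reads in every library, with 48.1 ± 2.57 CPM before and 140 ± 5.30 CPM after MGO (SD, n = 3), and such totals cannot check a small coding lesion. Of 8 markers of embryonic kidney or epithelial cells, 7 were at 1 CPM or more in every library and PAX8 was near 0. Their sum was 1139 to 1175 CPM in untreated and 1616 to 1639 CPM in MGO. KRT8 (512 to 535 against 817 to 831 CPM) and VIM (340 to 352 against 432 to 467 CPM) made up most of that sum and were higher. PAX2 (12.5 to 14.1 against 2.49 to 2.99 CPM) and CDH1 (10.03 to 10.8 against 4.61 to 5.36 CPM) were lower. The lymphoid markers summed to at most 0.166 CPM and the endothelial markers to at most 0.111 CPM. The fibroblast markers summed to 22.8 to 24.2 CPM in untreated and 10.8 to 12.5 CPM in MGO, almost all of it COL1A1, with DCN at or near 0. The part of these marker differences in the results was not tested. The mitochondrial share of counts was 4.20% to 5.42% in untreated and 5.34% to 8.17% in MGO libraries. Levels are CPM, counts scaled to the TMM-adjusted size of the library, so each is a share of its library, and in bulk RNA fewer cells of a type and less RNA per cell cannot be told apart.

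Of the 10 genes, 3 were higher in MGO (PPP1R15A, EIF2AK3 and PPP1R15B), 6 were lower (EIF2AK4, EIF2AK2, IMPACT, EIF2AK1, PPP1CC and PPP1CA) and PPP1CB did not pass the test (edgeR quasi-likelihood test, adjusted p under 0.05 over all tested genes). This is to be read against a background in which 83.1% of tested genes were called, 41.8% higher and 41.2% lower, and in which the groups did not overlap for 83.5% of genes. Among the members, groups did not overlap for 9 of 10. The share of members called is thus near the background, and what sets members apart from each other is the size and direction of each difference. Calls of at least 2-fold were made for 3 members, against 36.5% of tested genes: PPP1R15A and EIF2AK3 were higher, as were 19.8% of tested genes, and EIF2AK4 was lower, as were 16.7%. The median log2 fold change was -0.23 over the 10 members and 0.01 over all tested genes.

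**Figure D1:**
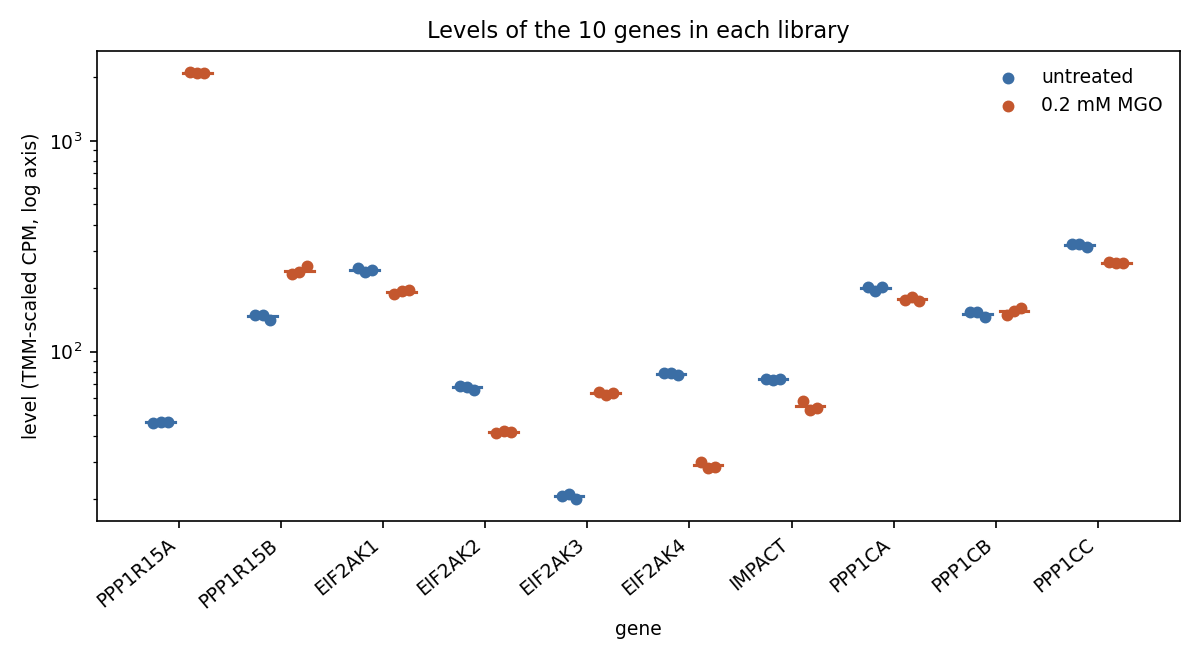
Level of each of the 10 genes in each library, in TMM-scaled CPM on a log axis, with untreated libraries in blue, MGO libraries in orange, and short lines at the group means (n = 3 each). PPP1R15A went from about 46.3 to 2100 CPM, EIF2AK3 and PPP1R15B were higher in every MGO library, and the PPP1CB groups overlapped.

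The regulatory subunits of the phosphatase both rose, by very different amounts. PPP1R15A, the inducible subunit, drew 2124, 2224 and 1984 reads from untreated libraries 1, 2 and 4, against 38322, 38971 and 44017 reads from MGO libraries 1, 3 and 4, although the MGO libraries were the shallower ones. Scaled for depth, it stood at 45.8, 46.5 and 46.6 CPM without MGO and at 2118, 2092 and 2091 CPM with it. All MGO libraries lay far above all untreated ones, and libraries of a group differed by little, with a coefficient of variation of 0.932% in untreated and 0.713% in MGO. The log2 fold change was 5.50 (SE 0.0392, 95% interval 5.42 to 5.58, adjusted p = 8.76e-40, edgeR), the smallest p among all tested genes, while by size it ranked 205 among the rises. Its share of all counts went from 0.0048% to 0.202%. Per kilobase of exon, PPP1R15A ranked 2991 to 3057 among 14124 genes with a known length in the untreated libraries, and 37 to 42 in the MGO libraries.

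PPP1R15B, the constitutive subunit, rose less. Its levels were 150, 149 and 142 CPM in untreated libraries 1, 2 and 4 and 233, 240 and 254 CPM in MGO libraries 1, 3 and 4. The lowest MGO library was above the highest untreated library. The difference was 1.65-fold (log2 fold change 0.72, SE 0.0397, adjusted p = 5.58e-17, edgeR). In raw counts PPP1R15B was lower in MGO, by a factor of 1.44, because these libraries held on average 0.455 times the counts, so the rise is a statement about its share of the library.

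The balance between the regulatory subunits was reversed. On length-scaled levels (RPKM: CPM per kilobase of annotated exon), the ratio of PPP1R15A to PPP1R15B was 0.516, 0.526 and 0.554 in untreated libraries and 15.4, 14.7 and 13.9 in MGO libraries. PPP1R15B was thus the more abundant mRNA in every untreated library and PPP1R15A in every MGO library. The log2 ratio moved from -0.91 ± 0.0540 to 3.87 ± 0.0723 (SD, n = 3 each), a change of 4.79 (exact permutation test, two-sided, p = 0.1, which is the lowest value possible with 3 against 3). A ratio within a library does not depend on how libraries are scaled to each other. In all, 8 such ratios and shares were tested, and 7 had groups that did not overlap, each at p = 0.1 and at p = 0.114 after Benjamini-Hochberg adjustment over the 8 exact tests, so none could pass 0.05. Among the levels of all tested genes, groups did not overlap for 83.5%. The shares of a set sum to a whole, so they are not separate results.

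The catalytic subunits of PP1, which serve many other regulatory subunits besides these, changed little. PPP1CC had 325, 325 and 315 CPM in untreated libraries and 266, 263 and 262 CPM in MGO libraries. The groups were separate and the level fell by 17.9% (log2 fold change -0.29, SE 0.0351, adjusted p = 9.58e-09, edgeR). PPP1CA had 203, 194 and 203 CPM in untreated and 175, 182 and 175 CPM in MGO libraries. It also fell, by 11.2% (log2 fold change -0.17, SE 0.0379, adjusted p = 0.000139, edgeR).

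PPP1CB did not pass the test. Its levels were 154, 154 and 146 CPM in untreated libraries and 150, 156 and 162 CPM in MGO libraries, and the groups overlapped. The log2 fold change was 0.044, with a 95% interval of -0.037 to 0.12 (adjusted p = 0.305, edgeR), that is between 0.975 and 1.09 times the untreated level. Only 3.74% of tested genes had an estimate as close to 0 or closer. Its sign depended on the settings: it was called lower with no filter on low counts (log2 fold change -0.14, adjusted p = 0.00352) and higher when every library had to reach 1 CPM (0.11, adjusted p = 0.0144), and it was not called with library size as the only scaling (-0.062) or without MGO library 4 (-0.021).

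Within the catalytic pool the mix shifted only slightly. PPP1CA made up 50.3% ± 1.08 of the summed RPKM in untreated and 50.04% ± 0.696 in MGO libraries (exact permutation p = 0.8). PPP1CB went from 17.9% ± 0.521 to 20.7% ± 0.711 and PPP1CC from 31.8% ± 0.573 to 29.2% ± 0.555, each with separate groups (n = 3, exact permutation p = 0.1). The summed RPKM of the catalytic subunits was 147 ± 1.68 in untreated and 131 ± 1.75 in MGO. Set against that sum, PPP1R15A mRNA rose from a ratio of 0.102 ± 0.00209 to 5.19 ± 0.102, and PPP1R15B from 0.192 ± 0.00515 to 0.354 ± 0.0153. The regulatory subunits together had a summed RPKM of 43.1 ± 0.758 in untreated, below that of the catalytic subunits, and of 725 ± 3.49 in MGO, above it. The catalytic shares and these ratios depend on the gene length used. By all annotated exons, mean untreated RPKM was 73.7 for PPP1CA, 26.3 for PPP1CB and 46.6 for PPP1CC. By the longest annotated transcript it was 119, 30.9 and 115, so that PPP1CC came close to PPP1CA. Mean PPP1R15A RPKM in MGO was 679 by all exons and 883 by the longest transcript. These are mRNA levels, and protein was not measured in these files.

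**Figure D2:**
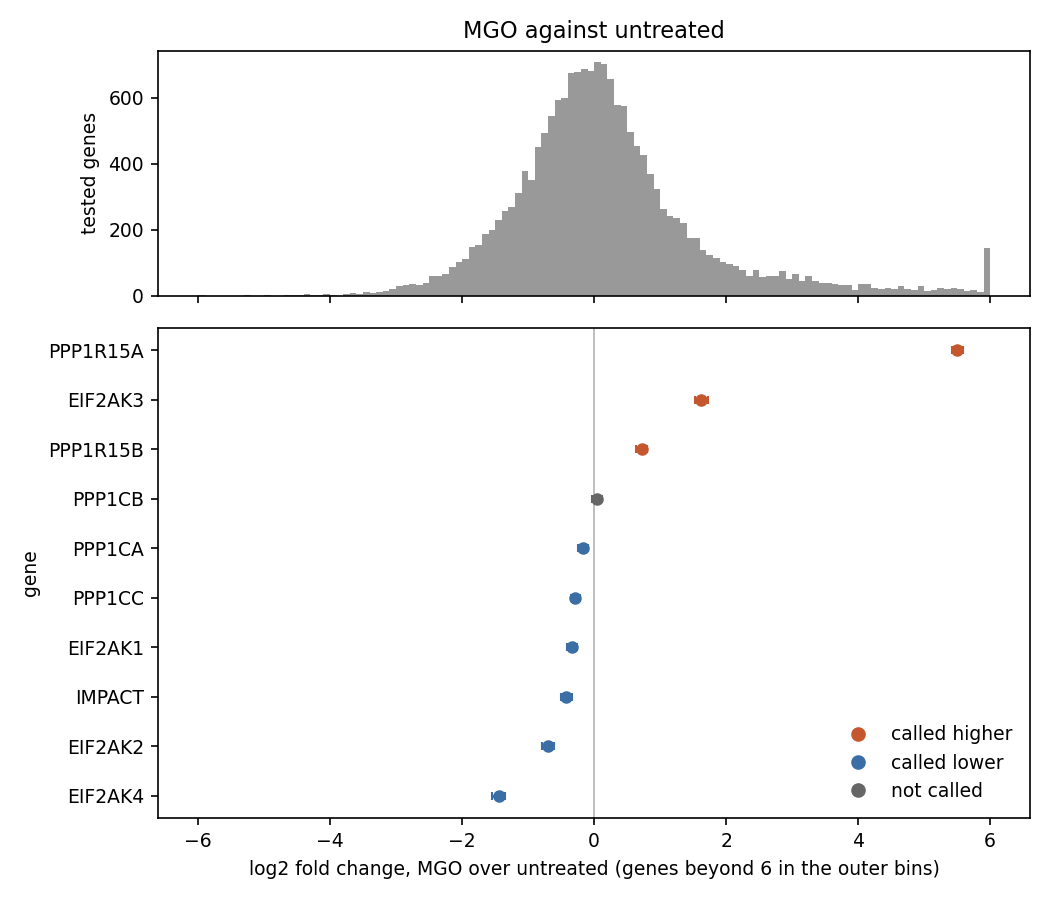
Upper panel, histogram of the log2 fold changes of all 17415 tested genes, and lower panel, the log2 fold change of each of the 10 genes with its 95% interval (edgeR), MGO over untreated. PPP1R15A (5.50) lies in the upper tail of all genes, EIF2AK3 (1.62) and EIF2AK4 (-1.45) stand on opposite sides, and PPP1CB (0.044) is the only member whose interval includes 0.

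Among the kinases, EIF2AK3 rose while the other 3 fell. EIF2AK3, the endoplasmic reticulum kinase PERK, had 20.7, 21.2 and 19.9 CPM in untreated libraries 1, 2 and 4 and 64.7, 62.0 and 63.9 CPM in MGO libraries 1, 3 and 4. All MGO libraries lay well above all untreated ones. The difference was 3.08-fold (log2 fold change 1.62, SE 0.0486, adjusted p = 6.50e-24, edgeR), and its raw counts were also higher in MGO, by a factor of 1.30, despite the lower depth.

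EIF2AK4, the kinase GCN2, showed the largest fall of the 10 genes. It had 79.0, 79.5 and 77.5 CPM in untreated and 30.0, 28.2 and 28.4 CPM in MGO libraries. The groups were far apart, and the level was 2.72-fold lower in MGO (log2 fold change -1.45, SE 0.0467, adjusted p = 4.70e-23, edgeR). IMPACT, which restrains this kinase, fell less: its levels were 74.4, 73.2 and 74.0 CPM in untreated and 58.6, 53.1 and 54.0 CPM in MGO libraries (log2 fold change -0.42, SE 0.0435, adjusted p = 2.71e-10, edgeR). MGO library 1 was the highest of its group for IMPACT and still below every untreated library. The RPKM ratio of IMPACT to EIF2AK4 went from 2.28 ± 0.0402 to 4.65 ± 0.0869 (n = 3 each), that is 2.04 times as much inhibitor mRNA per kinase mRNA; this ratio was added for description and was not tested. The size of the ratio in each group depends on the gene length used, while its fold change does not. By the longest annotated transcript, mean untreated RPKM was 19.5 for IMPACT and 14.3 for EIF2AK4. In MGO it was 14.6 and 5.25.

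EIF2AK2, the double-stranded RNA kinase PKR, had 69.0, 68.1 and 65.9 CPM in untreated and 41.1, 42.2 and 41.8 CPM in MGO libraries. It was 1.62-fold lower in MGO with no overlap (log2 fold change -0.70, SE 0.0444, adjusted p = 2.16e-15, edgeR). EIF2AK1, the heme-regulated kinase, had 250, 239 and 244 CPM in untreated and 188, 194 and 196 CPM in MGO libraries. Its fall of 21.1% was the smallest among the kinases (log2 fold change -0.34, SE 0.0369, adjusted p = 6.46e-10, edgeR).

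The make-up of the kinase mRNA pool shifted toward EIF2AK3. Its share of the summed RPKM of the 4 kinases was 6.16%, 6.50% and 6.09% in untreated libraries and 22.8%, 21.7% and 22.02% in MGO libraries. The share of EIF2AK4 went from 10.8% ± 0.214 to 4.58% ± 0.199, that of EIF2AK2 from 10.4% ± 0.187 to 7.36% ± 0.102, and that of EIF2AK1 from 72.5% ± 0.596 to 65.9% ± 0.715. Groups were separate for all 4 shares (n = 3 per group, exact permutation p = 0.1, two-sided). The RPKM ratio of EIF2AK3 to EIF2AK4 rose from 0.576 ± 0.0103 to 4.84 ± 0.102, so that EIF2AK4 was the more abundant of the pair in untreated libraries and EIF2AK3 in MGO libraries. By the longest annotated transcript, mean untreated RPKM was 4.43 for EIF2AK3 and 14.3 for EIF2AK4. In MGO it was 13.7 and 5.25, so the order of the pair was the same but the ratios were smaller. The summed RPKM of the kinases was 60.6 ± 1.04 in untreated and 52.7 ± 0.610 in MGO. These shares depend on the gene length used: with the longest annotated transcript in place of all annotated exons, the difference for EIF2AK1 was -3.06 percentage points instead of -6.65, and that for EIF2AK4 -9.93 instead of -6.27.

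**Figure D3:**
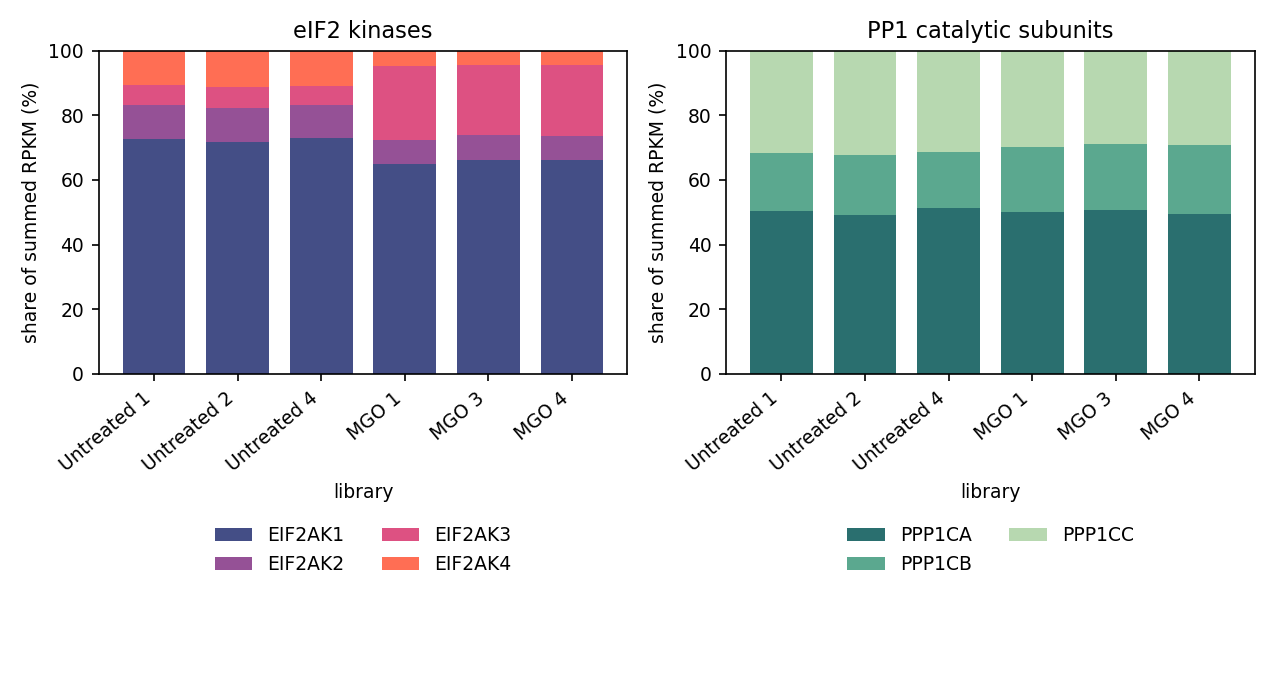
Stacked bars of the share of each gene in the summed RPKM of its set, per library, for the 4 eIF2 kinases and the 3 PP1 catalytic subunits. The EIF2AK3 band widens from 6.09% to 6.50% in untreated libraries to 21.7% to 22.8% in MGO libraries, while the PP1 catalytic shares move by under 3 percentage points.

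Ordered by mean RPKM, the untreated libraries ran PPP1CA (73.7), PPP1CC (46.6), EIF2AK1 (44.0), PPP1R15B (28.1), PPP1CB (26.3), IMPACT (15.0), PPP1R15A (15.0), EIF2AK4 (6.58), EIF2AK2 (6.29) and EIF2AK3 (3.79). IMPACT and PPP1R15A overlapped in their ranges and could not be ordered, and all other neighbours were separate. In the MGO libraries the order was PPP1R15A (679), PPP1CA (65.4), PPP1R15B (46.3), PPP1CC (38.2), EIF2AK1 (34.7), PPP1CB (27.1), EIF2AK3 (11.7), IMPACT (11.2), EIF2AK2 (3.88) and EIF2AK4 (2.41), and here EIF2AK3 and IMPACT overlapped. EIF2AK3 moved from the last place to the place of IMPACT, and EIF2AK4 took the last place. With the longest transcript as length, PPP1R15B and PPP1CB changed places in untreated (28.1 and 30.9), and in MGO PPP1CC came before PPP1R15B (94.4 and 46.3) and EIF2AK4 before EIF2AK2 (5.25 and 4.15).

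The members differ in gene structure in ways the list did not use. In GENCODE release 29, PPP1R15A and PPP1R15B have few exons (3 and 2 in the principal transcript, against a median of 9 over 13184 tested genes with such a transcript) and the kinases have 15 to 39. On GRCh38, PPP1R15A spans 3.67 kb at chr19:48872392-48876057 and PPP1R15B lies at chr1:204403387-204411791. The kinases lie at chr7:6022244-6059230 (EIF2AK1), chr2:37099210-37157065 (EIF2AK2), chr2:88556741-88627576 (EIF2AK3) and chr15:39934146-40035591 (EIF2AK4, which spans 101 kb), and IMPACT at chr18:24426616-24453535. The catalytic subunits lie at chr11:67398183-67421183 (PPP1CA), chr2:28751640-28802940 (PPP1CB) and chr12:110719680-110742939 (PPP1CC). Start codon letters (ATG) upstream of the coding sequence, where short upstream reading frames can begin, were counted in the 5′ UTR. There were 2 in PPP1R15A, 2 in PPP1R15B, 5 in EIF2AK3, 1 in EIF2AK2 and 1 in IMPACT, and none in the other 5 members. The 3 members that rose were the only ones with 2 or more, where 32.5% of the 13184 tested genes with a principal transcript have that many. This was seen after their values were known and is given without a test. Across these 13184 genes, 38.7% of those with an upstream ATG and 40.2% of those without were called higher, shares that lie close together. These shares are for any upstream ATG, and the share called higher among genes with 2 or more was not computed.

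**Figure D4:**
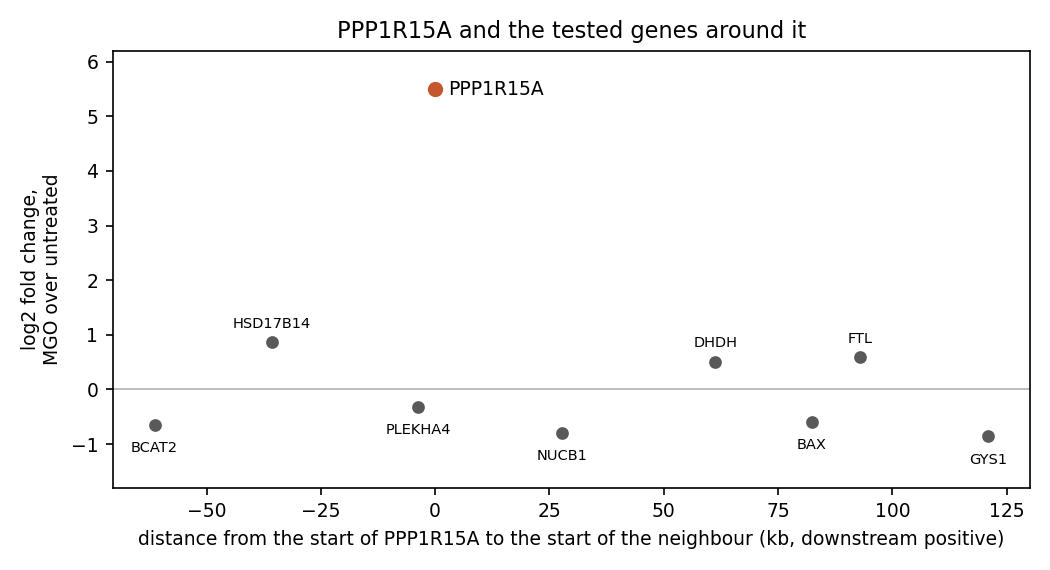
Log2 fold change (MGO over untreated) of PPP1R15A and of the 8 tested genes within 100 kb of it, against the distance between gene starts in kb; neighbours are genes with any part within 100 kb. PPP1R15A stands at 5.50 and none of its neighbours is above 0.86.

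Of 8 tested genes within 100 kb of PPP1R15A, 2 were called higher and 5 lower, and none was 2-fold higher. Among all tested genes the shares were 41.8%, 41.2% and 19.8%, and nothing particular to the neighbourhood is read from counts over 8 genes. The nearest, PLEKHA4, whose start lies at -3.76 kb on the other strand, went from 3.56 ± 0.184 to 2.83 ± 0.355 CPM. NUCB1, the next tested gene downstream on the same strand, went from 164 ± 5.23 to 94.9 ± 3.99 CPM (a log2 fold change of -0.79, adjusted p = 1.02e-17, edgeR). These neighbours were singled out for their position. The genes GPR176 (log2 fold change -1.55) and BMF (-2.12), near EIF2AK4, were lower too, and SRP14 was higher (0.32). No annotated gene overlaps PPP1R15A. EIF2AK1 shares 9.59% of its exon bases with AIMP2 on the opposite strand, PPP1CA shares 11.7% with CARNS1 and 8.41% with RAD9A, PPP1CB shares 7.99% with SPDYA, and EIF2AK3 shares 14.4% with the antisense gene AC104134.1. Strand use and the handling of reads in shared bases were not given in the sources used here. For PPP1CB and SPDYA, which lie on the same strand, strand use would not separate the reads. The values of these members may therefore include reads of the partner or lack reads that were left out. The catalytic subunits are close paralogs, whose reads may be split between them or left out.

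By Euclidean distance between centred log2 CPM over the 6 libraries, the tested genes most like PPP1R15A were MIR22HG (distance 0.206), KCNQ1OT1 (0.372) and MAFF (0.404). Their log2 fold changes were 5.69, 5.45 and 5.47, but their MGO levels were far lower, at 32.3 ± 2.49, 46.1 ± 7.84 and 64.2 ± 0.568 CPM. Those most like EIF2AK4 were HSDL1 (distance 0.0353), MLEC (0.0371) and JAZF1 (0.0426), with log2 fold changes of -1.43, -1.46 and -1.47. With 2 conditions this measure mainly finds genes with the same size of difference.

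Of 12 genes for eIF2, its nucleotide exchange factor eIF2B and their partners, 8 rose and 3 fell, namely CDC123 (log2 fold change -0.28), EIF2S3 (-0.19) and EIF2B1 (-0.12), while EIF2B3 was not called. Over all tested genes 41.8% were called higher and 41.2% lower, and the median of the list was 0.49, against 0.01 for all tested genes. EIF2S1, the alpha subunit that the kinases phosphorylate, stood at 217 ± 4.27 CPM in untreated and rose to 391 ± 6.40 CPM (a log2 fold change of 0.85, adjusted p = 4.17e-20, edgeR). EIF5, which triggers GTP hydrolysis on eIF2, rose from 270 ± 5.44 to 1054 ± 66.5 CPM, and the eIF2B subunits EIF2B2 and EIF2B5 rose with log2 fold changes of 1.54 and 0.74.

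Of 9 upstream modulators of the kinases, 3 were higher, 4 lower and 2, NCK1 and DNAJC3, not called (median log2 fold change -0.15), counts near the 41.8% higher and 41.2% lower of all tested genes. GCN1, the partner through which EIF2AK4 senses stalled ribosomes, fell together with it: the untreated mean of 262 ± 4.70 CPM compares with 169 ± 8.997 CPM in MGO (a log2 fold change of -0.63, adjusted p = 1.49e-15, edgeR). HSPA5 (BiP), the chaperone that holds EIF2AK3 inactive, fell as well (-0.22), and so did OMA1 (-0.33), the mitochondrial protease that cleaves DELE1. ADAR, an RNA editing enzyme that limits EIF2AK2 activation, fell from 322 ± 8.31 to 200 ± 7.39 CPM, while TARBP2, an inhibitor of EIF2AK2, and PRKRA, its protein activator, both rose (log2 fold changes of 0.32 and 0.24). The row under the older name KIAA0141 (DELE1), the messenger of mitochondrial stress to EIF2AK1, rose from 32.5 ± 1.83 to 56.2 ± 2.94 CPM.

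Downstream of phosphorylated eIF2, 14 of 20 genes of the ATF4 branch were higher and 3 lower, against 41.8% and 41.2% of all tested genes. Of these rises, 11 were at least 2-fold, where 19.8% of tested genes had such a rise. The median log2 fold change of the list was 1.53, against 0.01 for all tested genes. The falls were in VLDLR (-2.21), a lipoprotein receptor, and in PSAT1 (-0.29) and PHGDH (-0.28), enzymes of serine synthesis, and 3 genes were not called: DDIT4, SLC7A5 and XPOT. SLC7A5 stood at 109 to 116 CPM in untreated and at 97.1, 130 and 151 CPM in MGO libraries 1, 3 and 4. Over the alternative fits, 14 to 16 genes of the list were called higher and 3 to 4 lower. The 16 came from leaving out both libraries numbered 1. ATF3 (log2 fold change 4.95), DDIT3 (4.12), SLC3A2 (3.38) and ATF4 (3.04) had the smallest p-values, and the rise of PPP1R15A (5.50) was larger than any in this list. The members of this list were chosen with earlier results of these data known, so their direction is not independent evidence.

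No other regulatory subunit of PP1 in the list rose as far as PPP1R15A. Of 32 genes, 18 rose, 11 fell and 3 were not called (PHACTR1, PHACTR4 and PPP1R3C), against 41.8% higher and 41.2% lower among all tested genes. The median log2 fold change was 0.26, the highest 1.69 and the lowest -4.53, in PHACTR3, a gene of low level (1.69 CPM in untreated and 0.068 CPM in MGO). PPP1R13L, a p53-binding subunit, rose from 11.7 ± 0.695 to 37.6 ± 2.21 CPM, and PPP1R12B, a myosin phosphatase targeting subunit, from 11.7 ± 0.269 to 35.4 ± 1.78 CPM. PPP1R14C, an inhibitor of PP1, fell from 85.0 ± 2.16 to 16.8 ± 0.985 CPM (a log2 fold change of -2.34, with an adjusted p of 5.76e-27, edgeR), and PPP1R9B, the scaffold spinophilin, from 126 ± 2.57 to 48.7 ± 3.20 CPM. The number called lower was 7 when every library had to reach 1 CPM, a setting that tests fewer genes. Genes named in these lists as fallen or not called, beyond those of smallest p, were chosen after their values were seen.

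**Figure D5:**
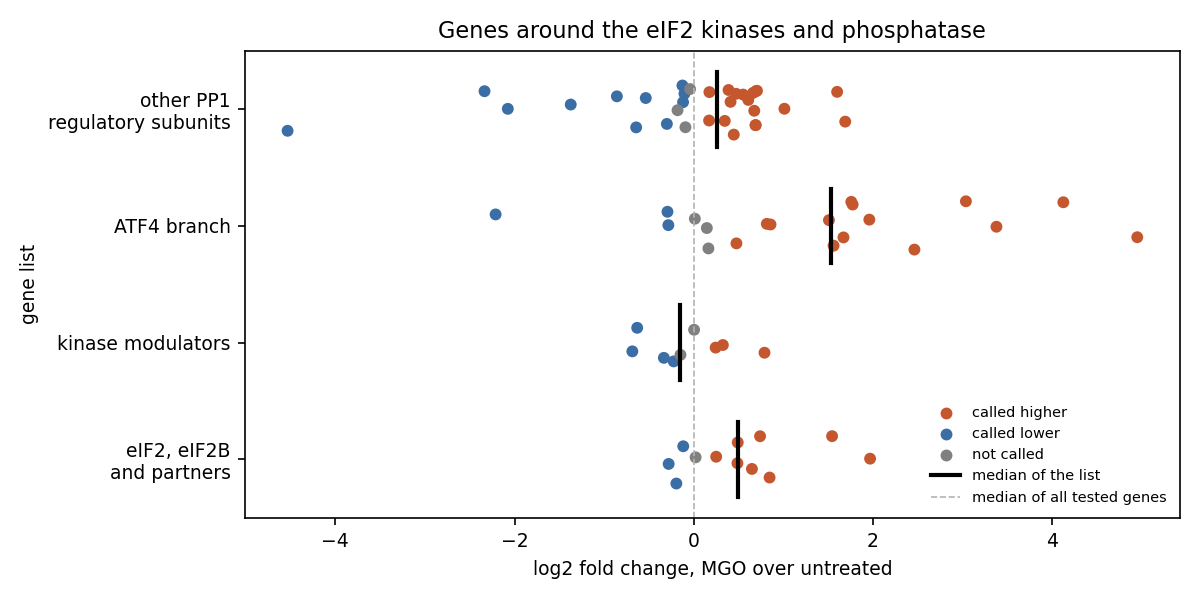
Log2 fold change (MGO over untreated) of each tested gene in 4 lists around the eIF2 kinases and phosphatase, coloured by call, with a bar at the median of each list and a dashed line at the median of all tested genes. The ATF4 branch has the highest median (1.53) and the kinase modulators the lowest (-0.15).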

How the data were processed

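Poly(A) RNA-seq of 3 untreated and 3 MGO-treated libraries was analysed. The authors deposited 1 table of whole-number read counts by gene symbol for each library, with no normalization. HTSeq 0.9.1, STAR 2.4, Trim Galore and Picard are listed per the submitters' processing notes, as is build hg38. Roles, annotation and strand setting: not given in the sources used here. No pair of libraries within a group agreed within sampling noise (chi-square per degree of freedom of 1.88 to 14.7, taken where a pair held 20 counts or more), and each was counted as a sample. The labels name no molecular identifiers, so PCR copies may be counted too. In the tables, 29 rows carry a date in place of a symbol, with 0.178% to 0.242% of a library's counts; they were tested and are not named.

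The whole table was fitted with edgeR 4.0.16 in R 4.3.3 (filterByExpr, TMM, robust glmQLFit, two-sided glmQLFTest, Benjamini-Hochberg adjustment at 0.05). The SE is the log2 fold change divided by the square root of F. CPM and RPKM were computed here, with lengths of all annotated exons from GENCODE release 29, matched for 81.1% of tested genes. Log2 CPM used a prior count of 2. Promoters come from RefSeq on GRCh38.p14. The members, lists and rule for named genes were chosen with earlier results of these data known. The rule took all members, GLO1, the 4 genes of smallest p in each list, and the 3 genes nearest in pattern to PPP1R15A and to the member with the largest fall. Other genes named were chosen for their position or, within the lists, after their values were seen. The alternatives were other scalings and filters, leaving out libraries, replicate blocks, limma voom, DESeq2, edgeR without robust shrinkage, thinned untreated counts, and another gene length. Counts were also simulated at the depths of these libraries (15916 genes). There, 35 of 50 true changes of 1.25-fold were found, 43 of 50 of 1.5-fold, 50 of 50 of 2-fold and 50 of 50 of 4-fold. False calls numbered 16 (8.25% of calls). Only these genes were changed, up and down in equal number, and all had a mean above 50 untreated counts. In the data 83.1% of tested genes were called, so the simulated rates may not hold for this comparison.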

Additional observations from a re-analysis of the deposited data

How the results depend on the processing

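Of 416 values recomputed under alternatives, 408 kept their direction and their side of the threshold, or stayed within 1.5 times for counts. The calls on the 9 members other than PPP1CB held under all 18 alternative fits, with log2 fold changes of 5.32 to 5.57 for PPP1R15A, 1.44 to 1.69 for EIF2AK3, 0.54 to 0.78 for PPP1R15B, -1.63 to -1.38 for EIF2AK4 and -0.35 to -0.11 for PPP1CA. For PPP1CB the log2 fold change turned to -0.062 with library size only, -0.14 with no filter and -0.021 without MGO library 4 (range -0.021 to 0.050 over the libraries left out), and it was called at 0.11 with at least 1 CPM in every library. The other members moved in the same direction as PPP1CB in these fits. With library size only, PPP1R15A stood at 5.40 and EIF2AK4 at -1.55. With no filter they stood at 5.32 and -1.63, and with at least 1 CPM in every library at 5.57 and -1.38. The cause was not tested. The median of all genes moved from 0.01 to 0.20 with no filter and to -0.10 with library size only. The difference in the PPP1CA share of the catalytic subunits, -0.23 percentage points, turned to 0.65 with the longest transcript as length and ran from -0.79 to 0.29 over the libraries left out (0.29 without untreated library 4, 0.10 without MGO library 4). The count of other PP1 regulatory subunits called lower went from 11 to 7 with at least 1 CPM in every library, where 12790 genes were tested. With untreated libraries thinned to the mean MGO total, PPP1R15A stood at 5.56.

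Libraries numbered 1 and 4 occur in both groups, but the labels give no pairing, and their deviations from the group means correlated at 0.0204 and -0.0078. With the replicate number as a fixed block, PPP1R15A had a log2 fold change of 5.51 and 6778 genes were called higher and 6673 lower, against 7282 and 7182 without it. In that fit, untreated library 2 and MGO library 3 were each alone in their block. The treatment difference therefore rested on the libraries numbered 1 and 4 only. The SE of PPP1R15A was 0.0870 with the block, against 0.0392 without it. The block changed no call on a member. The MGO libraries held fewer counts, which limits the precision of genes of low level there.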

Other observations

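The motif match at PPP1R15A was set beside all promoters as a description, with no test. Among 401 tested genes whose window held the cAMP response element TGACGTCA, 52.4% were called higher and 35.7% lower, with a median log2 fold change of 0.22. Among 10441 tested genes whose window lacked it, 39.5% were called higher, with a median of -0.07. Of 19 genes with the endoplasmic reticulum stress response element, 52.6% were called higher, a share close to that for the cAMP response element, against 39.998% of genes without it. The C/EBP-ATF element TGATGNAA stood at 37.5% of 296 genes with it (median -0.16) and 40.1% without it (median -0.056). Genes with the TATA letters stood at 40.6%, against 39.96% without them, and genes with the core of the interferon-stimulated response element at 39.8%, against 40.03%. Among genes with the match, 47.6% were called lower for the C/EBP-ATF element and 42.4% for the TATA letters. This share was 43.6% for the interferon-stimulated core and 36.8% for the endoplasmic reticulum stress response element.

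PPP1R15A and PPP1R15B have few exons, and the calls by exon number over all genes are given as a description, with no test. Of 1821 tested genes with up to 3 exons in the principal transcript, 32.7% were called higher (median log2 fold change -0.34), against 40.4% of those with more exons (median -0.05).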
